A study of Homo sapiens with 18 samples.

Results

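Glycolysis and the response to low oxygen were described here through 38 genes, the enzymes, transporters and regulators of glucose breakdown together with the subunits and well-known targets of the hypoxia-inducible factors. The genes were chosen by symbol, as a list and not by their measured values, though with earlier results of these data known. All 38 were found among the 26475 genes of the count table. RNA was sequenced from Mel92.1 and MP41, established human uveal melanoma cell lines. The labels give 10% fetal bovine serum for both lines, but the study's methods give a higher serum content for MP41, and where this was so, the line and its serum cannot be told apart. The cells were kept for 48 h with DMSO, the solvent control, or with 1 μM of UNC0642 or A366, small-molecule inhibitors of the histone methyltransferase EHMT2 (G9a), which places dimethylation on lysine 9 of histone H3. Both compounds can also inhibit the related enzyme EHMT1. With 3 biological replicates in each of the 6 groups, the experiment holds 18 libraries, and no genotype was altered in any of them.

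Glycolysis turns glucose into pyruvate, and lactate dehydrogenase turns pyruvate into lactate, which monocarboxylate transporters carry out of the cell. The hypoxia-inducible factor is a pair of proteins, an alpha subunit (HIF1A or EPAS1) and the shared partner ARNT. When oxygen is present, the prolyl hydroxylases EGLN1, EGLN2 and EGLN3 mark the alpha subunit for destruction. The protein level of this subunit is thus set largely after translation, which RNA counts do not show. The factor raises transcription of most glycolytic genes, of pyruvate dehydrogenase kinase PDK1 and of the mitophagy receptors BNIP3 and BNIP3L. In melanocytic cells MITF, the master regulator of the lineage, can also drive HIF1A transcription.

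Total counts ran from 23601160 to 62941453 per library, and ribosomal RNA genes took 3.31% to 32.8% of them, most in Mel92.1 UNC0642 replicate 1, which had the lowest total. The line of each library was checked with 20 genes specific to Mel92.1 and 21 specific to MP41, each at 20 CPM (counts scaled to library size) or more with DMSO in its own line and at 0.05 CPM or less in the other. For A366, the labels of replicates 2 and 3 went against these genes in both lines. The pair that the labels give to Mel92.1 held 0.0348% and 0.0124% of the level that Mel92.1 genes have with DMSO, but 115% and 121% of that for MP41 genes. The pair given to MP41 held 0.0285% and 0.0177% for MP41 genes, but 110% and 95.2% for Mel92.1 genes. None of the other 14 libraries exceeded 0.432% for the genes of the other line. Values in the study's own comparison tables follow the line seen in these genes, and that placement was used here, with the A366 replicates 2 and 3 exchanged between the lines. Values are given also as labelled or without these 4 where the result depends on them. The summed level of 8 melanocytic markers was 21100 to 24500 CPM over the Mel92.1 libraries and 15100 to 16300 CPM over the MP41 libraries, while 5 leukocyte markers summed to 2.21 CPM at most, 3 epithelial markers to 11.2 CPM and 4 fibroblast markers to 22.7 CPM.

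CA9, the membrane carbonic anhydrase often used as a marker of hypoxic tumours, was close to silent. It had 0 counts in all 9 Mel92.1 libraries and 0 to 7 counts in the MP41 libraries, was below the filter on low counts and was not tested. The other 37 members passed that filter in the fits of each line and of all 18 libraries.

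Promoter sequence was examined because the hypoxia-inducible factor binds DNA at short elements with the core ACGTG or GCGTG. RefSeq promoters (GRCh38.p14) were found for 34 of the 38 members, and the 250 bases before the start were searched on both strands. Only the first listed entry of each gene was used, so other starts were not searched. Some windows, among them those of GAPDH and PGAM1, lie inside the annotated gene. ACGTG was present in 13 of the 34 (38.2%) and in 18.7% of all 27305 promoters, and GCGTG was present in 12 of the 34 (35.3%) and in 31.9% of all. ACGTG lies inside CACGTG, the E-box that MITF and other factors can bind, which was present in 5 of the 34 members (14.7%) and in 6.5% of all promoters. The sequences below are shown for 5 members that were lower and 1 that was higher with A366 in MP41, with matches to either core in capitals.
LDHA (chr11:18394313-18394562, + strand): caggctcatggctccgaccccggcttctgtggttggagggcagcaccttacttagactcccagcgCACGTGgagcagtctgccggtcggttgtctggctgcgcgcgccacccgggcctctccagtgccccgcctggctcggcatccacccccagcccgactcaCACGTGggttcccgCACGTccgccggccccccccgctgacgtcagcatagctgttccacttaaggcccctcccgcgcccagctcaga
PGK1 (chrX:78103998-78104247, + strand): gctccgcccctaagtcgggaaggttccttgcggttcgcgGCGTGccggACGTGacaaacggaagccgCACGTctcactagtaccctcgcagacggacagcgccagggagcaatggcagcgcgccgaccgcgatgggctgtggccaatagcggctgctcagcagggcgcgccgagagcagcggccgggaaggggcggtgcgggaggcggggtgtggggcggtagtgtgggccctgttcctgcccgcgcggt
BNIP3 (chr10:131981924-131982173, - strand): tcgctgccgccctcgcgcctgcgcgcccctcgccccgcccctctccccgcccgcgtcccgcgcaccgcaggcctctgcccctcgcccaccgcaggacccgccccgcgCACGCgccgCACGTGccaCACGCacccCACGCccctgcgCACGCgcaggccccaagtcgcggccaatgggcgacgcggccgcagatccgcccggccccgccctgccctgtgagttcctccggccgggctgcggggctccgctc
HK2 (chr2:74833877-74834126, + strand): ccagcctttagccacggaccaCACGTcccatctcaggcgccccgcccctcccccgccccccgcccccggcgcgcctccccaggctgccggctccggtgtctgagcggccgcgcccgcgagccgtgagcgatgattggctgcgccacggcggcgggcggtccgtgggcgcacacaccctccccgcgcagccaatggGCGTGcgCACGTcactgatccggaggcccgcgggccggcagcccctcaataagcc
PDK1 (chr2:172555123-172555372, + strand): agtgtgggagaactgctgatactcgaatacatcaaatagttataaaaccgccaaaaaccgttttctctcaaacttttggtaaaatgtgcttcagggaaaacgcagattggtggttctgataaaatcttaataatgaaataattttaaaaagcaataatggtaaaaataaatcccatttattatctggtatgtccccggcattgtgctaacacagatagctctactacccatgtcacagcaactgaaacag
CA12 (chr15:63381847-63382096, - strand): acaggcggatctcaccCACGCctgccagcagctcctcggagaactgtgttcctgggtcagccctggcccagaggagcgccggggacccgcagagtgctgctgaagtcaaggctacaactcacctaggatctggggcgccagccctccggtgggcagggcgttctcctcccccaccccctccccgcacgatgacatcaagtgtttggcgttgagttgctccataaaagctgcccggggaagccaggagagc
With each strand counted, so that CACGTG gives 2 matches, LDHA carried 5 matches to ACGTG and no GCGTG, BNIP3 carried 2 and 4, PGK1 and HK2 each carried 2 and 1, and CA12 carried 1 GCGTG. PDK1 carried neither core in this window. Among the members that were lower with A366 in MP41, ACGTG was present in 6 of 14 with a promoter (42.9%), and among the remaining members in 7 of 20 (35.0%). A match describes the letters only, and binding was not measured.

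With DMSO the highest levels among the members were those of glycolytic enzymes in both lines. On a scale of CPM per kilobase of the longest annotated transcript, the highest level was that of GAPDH, the dehydrogenase in the middle of the pathway, at 2460 in Mel92.1 (range over libraries, 2090 to 2680) and 2100 in MP41 (2010 to 2160). LDHB, ENO1, ALDOA and LDHA followed within the first 5 places in both lines, and PGK1 was ninth in both. The summed level of the members was 14300 to 18400 CPM over the 18 libraries. Carbonic anhydrases CA9 and CA12 and adrenomedullin (ADM), a secreted vasodilator peptide, were near the low end in both lines.

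The lines differed widely in these genes before any inhibitor. In the comparison of Mel92.1 with MP41 under DMSO, 22 of 37 members were lower in Mel92.1 and 9 were higher, where 69.4% of all genes tested passed the threshold, 34.8% lower and 34.5% higher (adjusted p under 0.05, edgeR's quasi-likelihood test, Benjamini-Hochberg adjusted). The median log2 difference was -0.43 over the members and -0.022 over all 15799 genes. The groups of 3 libraries did not overlap for 31 of the members, 8 with all Mel92.1 libraries above and 23 below, against 38.6% and 38.8% of all genes.

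The largest difference was in SLC16A3 (MCT4, the lactate exporter of highly glycolytic cells; chr17:82228397-82261129). It read 0.655, 0.505 and 0.644 CPM in Mel92.1 and 50.4, 49.3 and 50.9 CPM in MP41, a log2 difference of -6.37 (95% interval -6.66 to -6.07, edgeR adjusted p = 3.41e-16). The locus overlaps CSNK1D on the opposite strand. SLC16A3 was thus near the detection limit in every Mel92.1 library and moderate in every MP41 library. The enolases showed the reverse: ENO2, the neuronal isoform (chr12:6913745-6923698), read 11.4, 11 and 11.6 CPM in Mel92.1 and 0.389, 0.929 and 0.217 CPM in MP41 (log2 difference 4.48, 3.72 to 5.24, edgeR adjusted p = 5.45e-09). The annotated locus of ENO2 overlaps that of LRRC23 on the same strand, so part of the ENO2 reads may be uncertain. ENO1 made up at least 99.4% of the enolase level per kilobase in every library.

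Of the members for oxygen sensing and HIF, all but EPAS1 were lower in Mel92.1. HIF1A (chr14:61695513-61748259) read 103, 86.7 and 80.2 CPM in Mel92.1 and 259, 263 and 271 CPM in MP41 (log2 difference -1.55, -1.83 to -1.27, edgeR adjusted p = 1.11e-08). ARNT (chr1:150809705-150876768) read 38.4, 34.7 and 30.1 against 49.8, 49.9 and 48.5 CPM (-0.52, -0.75 to -0.29, edgeR adjusted p = 0.000427). EPAS1 (HIF-2 alpha, chr2:46293667-46386703) read 43.9, 36.2 and 36.8 against 39.4, 37.4 and 42.4 CPM and did not pass (-0.028, -0.31 to 0.25). The lines were thus separated in HIF1A and ARNT and overlapped in EPAS1. The HIF1A share of the 2 alpha subunits, per kilobase, was 74.0% to 75.8% in Mel92.1 and 89.3% to 90.2% in MP41. Of the hydroxylases, the members EGLN1 (-1.5) and EGLN3 (-1.97) were lower in Mel92.1. EGLN2, which is not a member, went the other way, at 120 to 145 CPM in Mel92.1 and 32.7 to 34.4 CPM in MP41.

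Other large differences lay in classical targets. PDK1, the kinase that switches off pyruvate dehydrogenase (chr2:172555373-172608669), read 16.7, 14.0 and 14.8 CPM in Mel92.1 and 75.8, 73.5 and 81.4 CPM in MP41 (log2 difference -2.34, -2.62 to -2.06, edgeR adjusted p = 5.67e-11). ADM (chr11:10304680-10307397) read 0.287, 0.186 and 0.386 against 1.25, 2.53 and 1.87 CPM (-2.7, -3.92 to -1.48, edgeR adjusted p = 0.000474). CA12 held 3, 0 and 1 counts in Mel92.1 and 18, 9 and 16 in MP41 (-3.23, -4.77 to -1.68, edgeR adjusted p = 0.000823), a fitted value that depends on the prior count. No library of one line reached the other in these 3 genes. ANKRD37 (-1.71), the glucose transporter SLC2A1 (-1.61), the stress-response gene NDRG1 (-1.31), the collagen hydroxylase P4HA1 (-1.13) and BNIP3 (-1.01) were lower as well.

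Other than ENO2, the members that were higher in Mel92.1 differed by 0.64 or less on the log2 scale. LDHB (chr12:21635342-21757857), the lactate dehydrogenase subunit of oxidative tissues, read 1910, 2070 and 2070 CPM in Mel92.1 and 1250, 1400 and 1240 CPM in MP41 (log2 difference 0.64, 0.46 to 0.82, edgeR adjusted p = 3.01e-06). ALDOA (chr16:30064164-30070457), the main aldolase, read 1480, 1780 and 1900 against 1160, 1150 and 1160 CPM (0.57, 0.37 to 0.77, edgeR adjusted p = 3.76e-05). VEGFA (chr6:43770184-43786487), the angiogenic growth factor and a target of HIF, read 24.2, 24.7 and 24.6 against 20.3, 21.1 and 18.8 CPM (0.29, 0.12 to 0.45, edgeR adjusted p = 0.00307), opposite in sign to most targets of HIF on the list. These 3 genes did not overlap between the lines. LDHA, the subunit of glycolytic tissues, was lower in Mel92.1 (-0.5), so that it made up 27.0% to 27.8% of the lactate dehydrogenase level per kilobase there and 43.2% to 46.7% in MP41. Smaller rises of PFKFB3 (0.26), PFKP (0.25), GAPDH (0.23), TPI1 (0.22) and BNIP3L (0.19) also passed. With offsets for the GC content and length of transcripts, PFKP, TPI1 and GAPDH turned to -0.15, -0.13 and -0.2, and PFKFB3 did not pass. PFKFB3 passed under 14 of the 18 alternatives run and BNIP3L under 10. Leaving out a single DMSO library ended the call of GAPDH, TPI1, BNIP3L, P4HA2 or PKM: GAPDH was lost without any of the libraries other than Mel92.1 replicate 1, TPI1 without any other than Mel92.1 replicate 1 or MP41 replicate 2, BNIP3L without Mel92.1 replicate 1 or 2 or MP41 replicate 2, P4HA2 without any other than MP41 replicate 3, and PKM without Mel92.1 replicate 1.

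**Figure D1:**
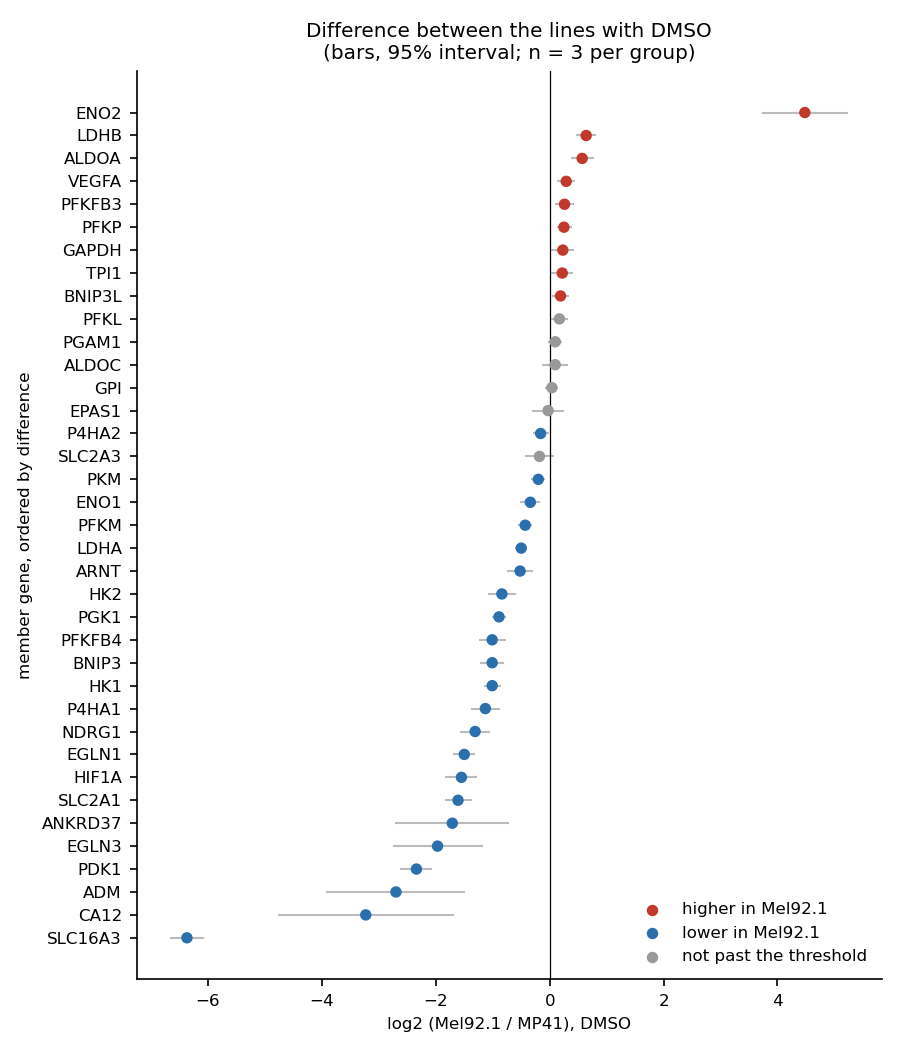
The log2 difference between Mel92.1 and MP41 with DMSO is plotted for 37 members (x axis) in order of size (y axis), with 95% intervals as bars and 3 libraries per line. SLC16A3 at -6.37 and ENO2 at 4.48 lie at the ends, and 22 members are lower in Mel92.1 against 9 higher.

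A366 changed many of these genes in MP41, and most of the changes were falls. Against DMSO, 16 of 37 members were lower and 4 were higher, where 46% of all 14956 genes passed the threshold, 23.5% lower and 22.5% higher. The share of members called, 54.1%, was thus near that of all genes, while their median log2 fold change was -0.117 against 0.02 for all genes. The 3 A366 libraries lay wholly below the 3 DMSO libraries for 15 members and wholly above for 5, against 26.7% and 31.4% of all genes. The 3 endothelial markers summed to 2.37 to 3.14 CPM with A366 and 0.369 to 0.584 CPM with DMSO, and their part in these results was not tested. Most of the highest sums came from VWF, which reached 2.88 CPM over the MP41 libraries. PECAM1 reached 0.294 CPM and CDH5 0.0173 CPM. In bulk RNA, fewer cells that express a gene and less RNA per cell cannot be told apart.

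All 3 HIF subunits passed as lower, HIF1A under all 18 alternatives run, ARNT under 10 and EPAS1 under 11. ARNT lost its call with the offsets for GC content and length and with the replicate block, and EPAS1 with the block and with only the groups compared. HIF1A read 259, 263 and 271 CPM with DMSO and 164, 195 and 139 CPM with A366, a log2 fold change of -0.69 (95% interval -0.91 to -0.48, edgeR adjusted p = 0.000531). ARNT read 49.8, 49.9 and 48.5 against 38.5, 45.7 and 38.5 CPM (-0.3, -0.52 to -0.076, edgeR adjusted p = 0.0308), and EPAS1 read 39.4, 37.4 and 42.4 against 31.8, 38.5 and 29.8 CPM (-0.28, -0.48 to -0.068, edgeR adjusted p = 0.0328). HIF1A and ARNT did not overlap between the groups, and EPAS1 did. Antisense transcripts HIF1A-AS1 and HIF1A-AS2 overlap HIF1A, and the strand setting of the counting is not given in the sources used here. The hydroxylase EGLN1, itself a target of HIF that feeds back on it, fell by 0.51 on the log2 scale, while EGLN3 (-0.12) did not pass. With the offsets for GC content and length, EGLN3 passed as lower (-0.22). EGLN2, which is not a member, was higher, at 32.7 to 34.4 CPM with DMSO and 44.9 to 55.7 CPM with A366.

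PDK1 fell most without the offsets for GC content and length, and with them it stood at -0.61, above BNIP3 at -0.9. PDK1 read 75.8, 73.5 and 81.4 CPM with DMSO and 34.6, 38.7 and 31.7 CPM with A366 (-1.16, -1.34 to -0.98, edgeR adjusted p = 8.84e-06), 2.23-fold lower, and the A366 libraries lay close together. BNIP3 (chr10:131966455-131982013) followed, from 133, 148 and 138 CPM to 86.8, 73.8 and 86.1 CPM (-0.79, -1.0 to -0.58, edgeR adjusted p = 0.000278). The related receptor BNIP3L fell by 0.56 and P4HA1 by 0.47 on the log2 scale. P4HA2, VEGFA, ANKRD37 and ADM (0.022 to 0.15) did not pass, so the targets of HIF did not all move alike.

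Among the transporters and enzymes of glycolysis, some members fell and others did not pass. HK2 (chr2:74833981-74893359), the inducible hexokinase, read 117, 117 and 119 CPM with DMSO and 78.3, 89.3 and 69.6 CPM with A366 (-0.6, -0.78 to -0.41, edgeR adjusted p = 0.00049). The constitutive HK1 fell less (-0.29), and HK2 went from 23.0% to 24.4% of the hexokinase level per kilobase to 18.5% to 21.8%. The glucose transporters SLC2A1 (-0.47) and SLC2A3 (-0.28) fell too, and the lactate exporter SLC16A3 (0.14) did not pass. Of the later enzymes, LDHA (-0.48, -0.58 to -0.38), the ATP-forming kinase PGK1 (-0.28) and the mutase PGAM1 (-0.22) fell, as did PFKFB3 (-0.26), which makes the activator of phosphofructokinase. LDHA went from 43.2% to 46.7% of the lactate dehydrogenase level per kilobase to 33.3% to 36.6%, and the A366 libraries lay below all DMSO libraries.

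Some steps did not follow. GAPDH (-0.048, -0.2 to 0.11), TPI1 (0.0042, -0.17 to 0.18), PKM (-0.00022, -0.12 to 0.12), ENO1 (-0.062, -0.2 to 0.076) and GPI (-0.035, -0.16 to 0.089) did not pass in the main fit. Their intervals in that fit, which has no offset, reached no farther than 0.2 on either side of 0. With offsets for GC content and transcript length, GAPDH, TPI1, PKM and ENO1 passed as lower, and some values lay outside those intervals. With the offsets, with or without the exchanged libraries, GAPDH stood at -0.41 to -0.38 and TPI1 at -0.36 to -0.34. ENO1 stood at -0.26 to -0.25 and PKM at -0.15 to -0.14. PFKL (chr21:44300051-44327376), the liver-type phosphofructokinase, rose from 112, 109 and 110 CPM to 130, 114 and 137 CPM (0.18, 0.033 to 0.33, edgeR adjusted p = 0.0464). PFKM (chr12:48105139-48146404), the muscle type, rose from 229, 218 and 226 CPM to 256, 247 and 254 CPM (0.14, 0.029 to 0.26, edgeR adjusted p = 0.0421), and it overlaps SENP1 on the opposite strand. In both phosphofructokinases the groups did not overlap, though the changes were small. NDRG1 (chr8:133237171-133302022) rose from 24.9, 26.4 and 26.0 CPM to 32.5, 32.1 and 31.2 CPM (0.29, 0.12 to 0.45, edgeR adjusted p = 0.0098), while PDK1, BNIP3, BNIP3L and P4HA1 fell.

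CA12 (chr15:63321378-63382161), a membrane carbonic anhydrase that helps to regulate pH, rose most. It read 0.389, 0.209 and 0.348 CPM with DMSO, on 9 to 18 counts, and 1.71, 2.29 and 1.79 CPM with A366, on 83 to 114 counts (2.58, 1.84 to 3.31, edgeR adjusted p = 0.000354). This was a 5.96-fold rise from a low level, and no A366 library came near the DMSO libraries.

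Of the 20 members called, 8 passed under all 18 alternatives run: HIF1A, PDK1, BNIP3, HK1, HK2, SLC2A1, LDHA and P4HA1. Leaving out any of the 6 libraries other than A366 replicate 2 ended the calls of ARNT, SLC2A3, PFKL and PFKM, and that of EPAS1 except without DMSO replicate 2. Without the 4 exchanged libraries, on the 1 A366 library left and with its variation assumed to equal that of the other groups, 20 members passed, among them all 16 that fell, and PDK1 stood at -1.19 and HIF1A at -0.73. With the libraries as labelled, 14 members passed, 3 higher and 11 lower.

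GC content moved with this comparison. The median log2 fold change of all genes rose with the GC content of the longest transcript, from -0.303 below 40% to 0.336 at 60% and over, and 51.6% of genes in the lowest range were called lower. All 3 members below 40% GC (HIF1A, PDK1 and BNIP3L) fell, and 6 fell and 3 rose among the 14 members at 50 to 55%, where 13.1% of all genes were called lower and 27.1% higher. With offsets for transcript GC content and length, PDK1 stood at -0.61, HIF1A at -0.46, EGLN1 at -0.19 and PGK1 at -0.063 (no longer past the threshold, like ARNT, SLC2A3 and PFKM), BNIP3 at -0.9, HK2 at -0.51, LDHA at -0.51, SLC2A1 at -0.58 and CA12 at 2.72. In that fit 22 members were lower and 4 higher, and 13 of the 16 falls were shared with the fit without the offset. The median log2 fold change of the members was -0.245 with the offset, against -0.003 for all genes. The part of GC content in these results was not otherwise tested.

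**Figure D2:**
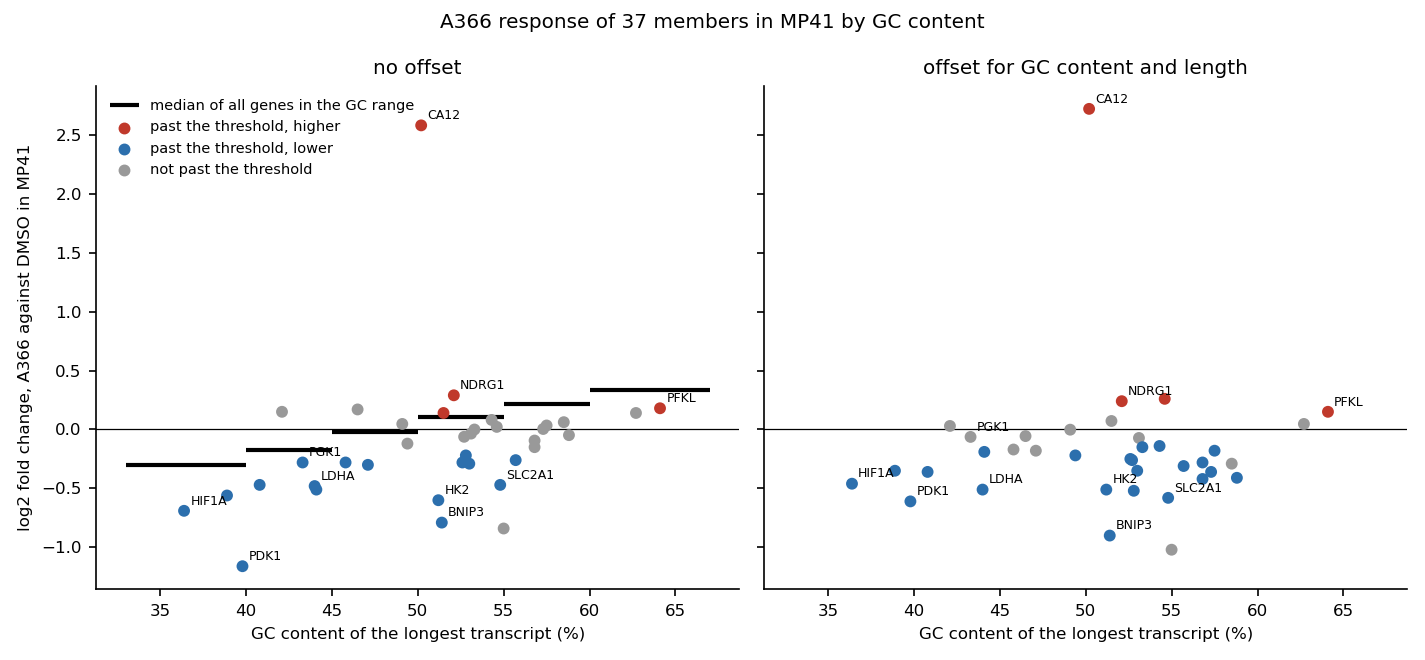
The log2 fold change of 37 members with A366 against DMSO in MP41 (y axis) is plotted against the GC content of the longest transcript (x axis, percent), without an offset on the left and with offsets for GC content and transcript length on the right. Black lines in the left panel are medians of all genes per GC range and rise from -0.303 to 0.336, and PDK1 moves from -1.16 to -0.61 while BNIP3 moves from -0.79 to -0.9.

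UNC0642 gave no such change in MP41. Against DMSO, 0 of 37 members passed the threshold with edgeR's quasi-likelihood test and 0 with the DESeq2 Wald test, 9 had an unadjusted p under 0.05, and 0.241% of all genes passed (8.8% at the unadjusted p). The median log2 fold change of the members was 0.101 against 0.001 for all genes, 25 of 37 were positive, and all 8 genes of lower glycolysis, from GAPDH to the lactate dehydrogenases, had values above 0. PGK1 read 1320, 1280 and 1290 CPM with UNC0642 against 1130, 1130 and 1110 CPM with DMSO (0.2, 0.083 to 0.32, edgeR adjusted p = 0.243), and LDHA read 1960, 1870 and 1950 against 1720, 1670 and 1700 CPM (0.18, 0.079 to 0.28, edgeR adjusted p = 0.204). In both genes the libraries did not overlap although neither passed. HK2, at 102, 107 and 103 CPM against 117, 117 and 119 CPM (-0.18, -0.36 to 0.0034), and HIF1A lay wholly below DMSO and did not pass either. Over the members, the 3 UNC0642 libraries lay wholly above DMSO for 16 and wholly below for 4, against 9.46% and 9.29% of all genes. Without the 4 exchanged libraries PGK1, LDHA and ENO1 passed as higher. HIF1A (234, 237 and 247 CPM, -0.15, -0.37 to 0.069) and PDK1 (83.9, 89.8 and 91.0 CPM, 0.19, 0.017 to 0.37) did not pass.

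The inhibitors were then compared with each other at the same dose and time, in 1 pair per line. In MP41, 20 of 37 members were lower with A366 than with UNC0642 and 2 were higher, where 43.1% of all genes passed, 22% lower and 21.1% higher. PDK1 (-1.35, -1.53 to -1.17, edgeR adjusted p = 1.91e-06), BNIP3 (-0.89, -1.1 to -0.68, edgeR adjusted p = 0.000108), BNIP3L (-0.7, -0.84 to -0.57, edgeR adjusted p = 3.35e-05) and LDHA (-0.66, -0.76 to -0.56, edgeR adjusted p = 5.08e-06) were lower with A366. CA12 (2.78, 2.04 to 3.53, edgeR adjusted p = 0.000199) and NDRG1 (0.32, 0.15 to 0.49, edgeR adjusted p = 0.00574) were higher. This comparison shares its A366 libraries with the one against DMSO, so its values are not independent of those above. The median of all genes rose with GC content here too, from -0.276 below 40% to 0.296 at 60% and over. With offsets for GC content and length, all 20 lower and 2 higher calls were kept. Over the 18 alternatives, as labelled among them, PDK1 ran from -2.12 to -0.8 and BNIP3L from -0.72 to -0.22. Leaving out 1 library ended the calls of ALDOC, ARNT, ENO1, GPI, PKM, PFKFB3 or SLC2A1, most often of PKM (without any library other than A366 replicate 3). As labelled, 13 members passed.

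**Figure D3:**
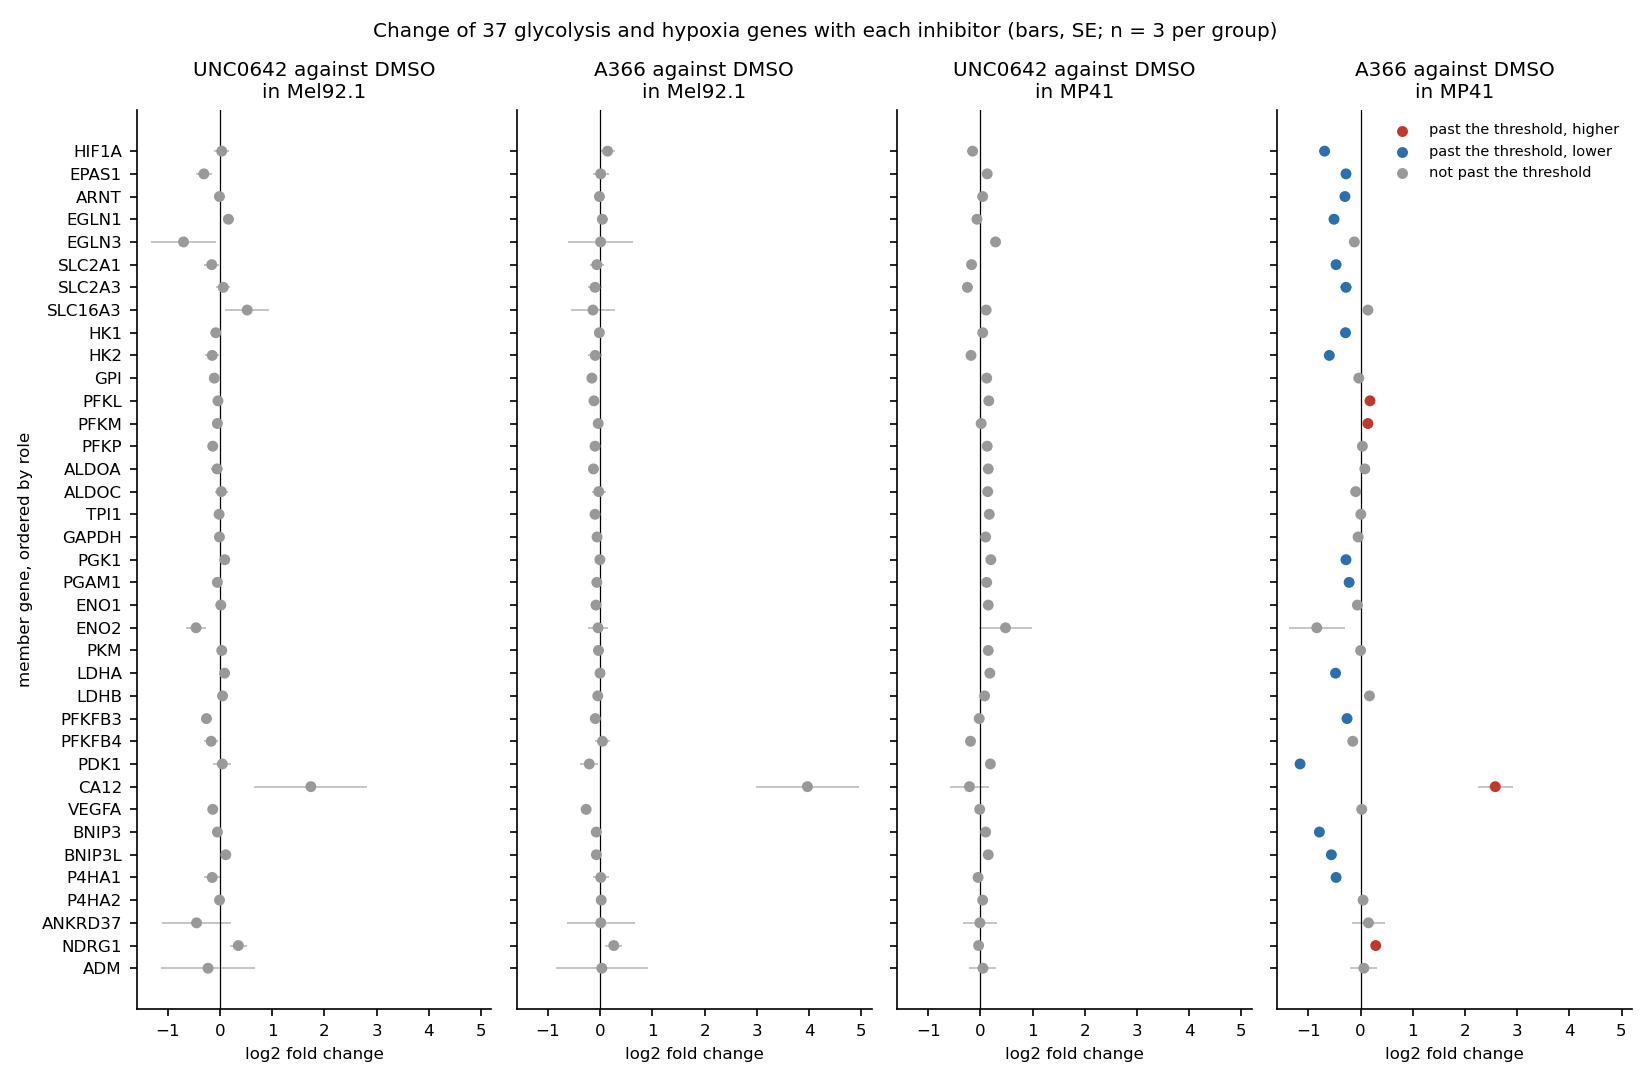
Log2 fold changes (x axis) of 37 members, ordered by role (y axis), are plotted for each inhibitor against DMSO in each line, with the standard error as bars and 3 libraries per group. Blue and red points are past the threshold, and they occur only in the panel of A366 in MP41, with 16 lower and 4 higher.

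In Mel92.1 neither inhibitor moved a member past the threshold with edgeR. With UNC0642 against DMSO the count was 0 of 37 with edgeR's quasi-likelihood test and 0 with the DESeq2 Wald test, 2 had an unadjusted p under 0.05, and 0.688% of all genes passed (9.93% at the unadjusted p). With A366 it was 0 of 37 with edgeR's quasi-likelihood test, 3 had an unadjusted p under 0.05, and 0.213% of all genes passed (4.32% at the unadjusted p). The DESeq2 Wald test called 2 members there, CA12 higher and VEGFA lower. Limma voom with quality weights called 13, with CA12, HIF1A (0.27) and NDRG1 (0.33) higher and 10 lower, among them GAPDH, ENO1, ALDOA and VEGFA. A366 against UNC0642 gave 0 of 37 by either tool and 1 at the unadjusted p, where 0.165% of all genes passed (7.21% at the unadjusted p).

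The intervals of the HIF subunits in Mel92.1 took in both rises and falls. With A366, the interval of EPAS1 held the fall called in MP41 (-0.28), and that of ARNT came close to it (-0.3). The interval of HIF1A left out its fall in MP41 (-0.69). HIF1A read 77.6, 96.3 and 103 CPM with UNC0642 (0.032, -0.28 to 0.35) and 104, 111 and 83.3 CPM with A366 (0.14, -0.17 to 0.46), overlapping the DMSO libraries. EPAS1 read 23.7, 33.6 and 36.6 CPM with UNC0642 (-0.31, -0.65 to 0.034) and 40.6, 41.8 and 35.3 CPM with A366 (0.0088, -0.33 to 0.35). ARNT read 34.3, 31.3 and 37.2 CPM (-0.011, -0.26 to 0.24) and 34.9, 36.1 and 31.2 CPM (-0.016, -0.26 to 0.23). The HIF subunits of Mel92.1 with either inhibitor thus lay among or close to their DMSO values, the lowest being EPAS1 in UNC0642 replicate 1, the library with the highest share of ribosomal RNA.

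BNIP3 in Mel92.1 read 68.6, 70.1 and 68.6 CPM with DMSO and 67.1, 63.9 and 65.5 CPM with A366 (-0.076, -0.29 to 0.14), slightly lower in every library, and PDK1 read 13.2, 14.8 and 11.5 CPM with A366 (-0.21, -0.58 to 0.17). For LDHA the interval with A366 was -0.14 to 0.13 and for PGK1 -0.14 to 0.13. Both leave out falls of the size seen in MP41 without the offsets for GC content and length. With the offsets, the smaller fall of PGK1 in MP41 did not pass, and PGK1 does not separate the lines there. CA12 was the member with the largest value: it held 3, 0 and 1 counts with DMSO and 31, 21 and 19 with A366 (0.0614, 0 and 0.0258 against 0.754, 0.458 and 0.385 CPM). Every A366 library was above every DMSO library, but the gene missed the threshold (edgeR adjusted p = 0.288), and it passed when only the groups compared were fitted, with the DESeq2 Wald test and with voom. VEGFA read 20.4, 20.6 and 19.8 CPM with A366 against 24.2, 24.7 and 24.6 CPM with DMSO (-0.27, -0.45 to -0.09, edgeR adjusted p = 0.524).

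The difference in response between the lines was tested as an interaction over the 18 libraries. For A366, 8 of 37 members passed, 7 higher and 1 lower, where 13.8% of all genes did, 5.13% higher and 8.67% lower. The change was higher in Mel92.1 than in MP41 for PDK1 (0.93, 0.54 to 1.31, edgeR adjusted p = 0.0059), HIF1A (0.81, 0.43 to 1.2, edgeR adjusted p = 0.0114), BNIP3 (0.69, 0.39 to 0.98, edgeR adjusted p = 0.00746), EGLN1 (0.52), BNIP3L (0.46), LDHA (0.45) and PGK1 (0.25). Each of these genes fell in MP41, and none passed in Mel92.1. It was lower for PFKL (-0.33). CA12 had positive values in both lines, and its difference of 1.37 (-0.51 to 3.24) did not pass. Without the 4 exchanged libraries 0 members passed. With the offsets for GC content and length 10 passed, but PDK1, EGLN1, BNIP3L, PGK1 and PFKL were not among them, while HIF1A, BNIP3 and LDHA were. Leaving out 1 library ended the call of PGK1 in each of the 12 cases and that of PFKL in 9, and EGLN1 lost its call without Mel92.1 DMSO replicate 3, Mel92.1 A366 replicate 1 or 2 or MP41 A366 replicate 3. For UNC0642, 0 of 37 members differed between the lines with edgeR's quasi-likelihood test and 0 with the DESeq2 Wald test, 6 had an unadjusted p under 0.05, and 0.601% of all genes passed (9.79% at the unadjusted p).

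**Figure D4:**
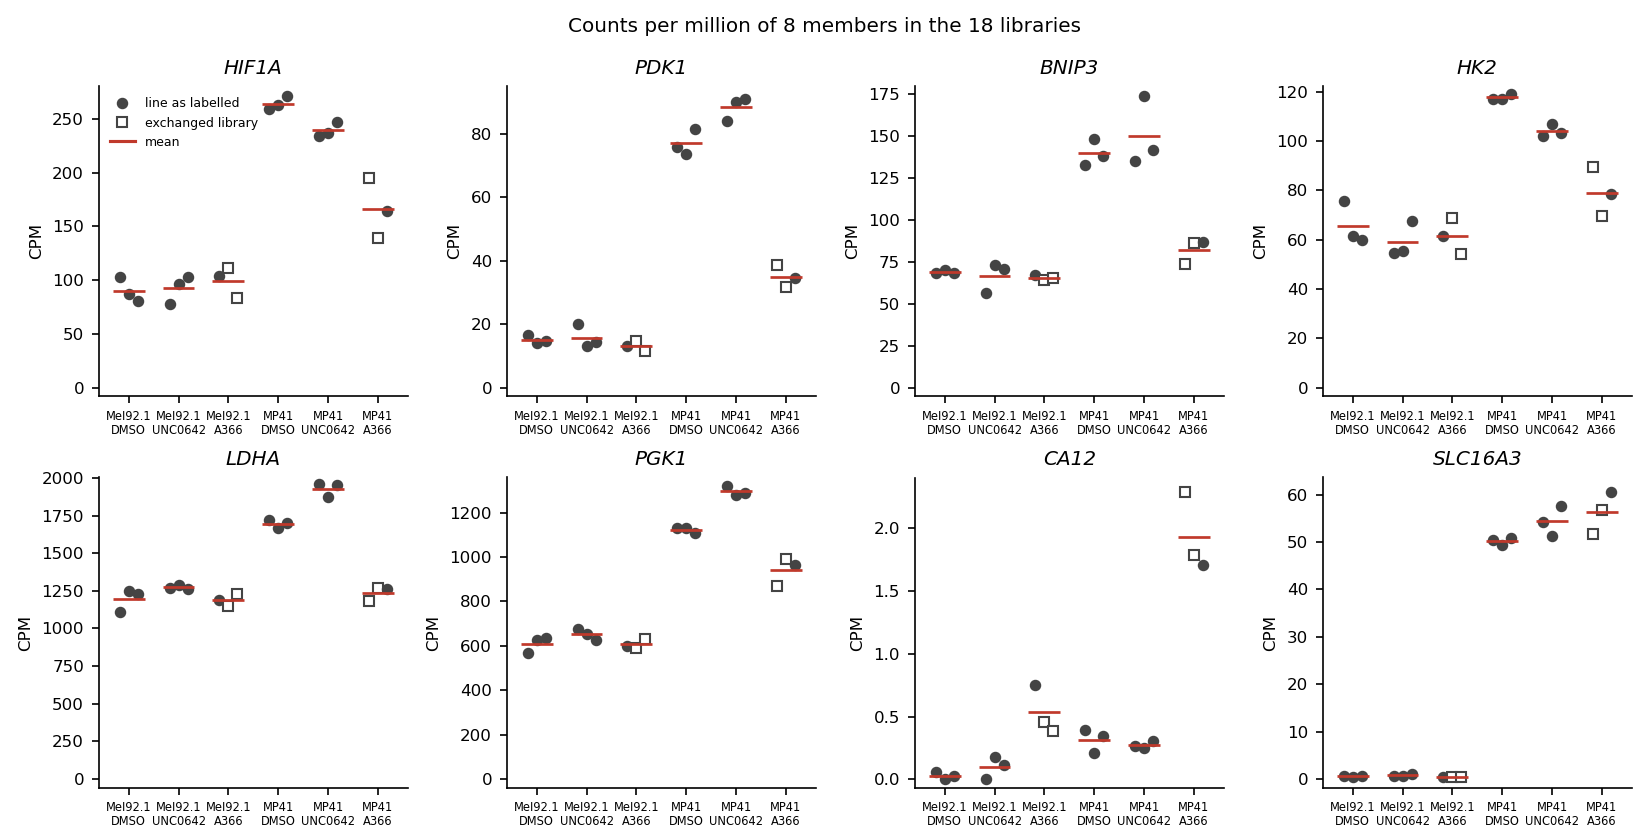
CPM (y axis) of HIF1A, PDK1, BNIP3, HK2, LDHA, PGK1, CA12 and SLC16A3 are plotted for each library in the 6 groups (x axis), with the group mean as a red line and the 4 exchanged libraries as open squares. In MP41 the A366 libraries of HIF1A (139 to 195 CPM) and PDK1 (31.7 to 38.7 CPM) lie below all DMSO libraries, and in Mel92.1 the groups of both genes overlap.

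Other genes of these pathways were counted from lists that hold none of the members. Of 29 further genes of glucose, pyruvate and pentose phosphate metabolism, 21 were tested in MP41, and with A366 5 were higher and 4 lower (median 0.183). Of 25 further targets of HIF, 21 were tested, and 3 were higher and 8 lower (median -0.22). Of 13 regulators of HIF, 10 were tested, and 4 were higher and 2 lower (median 0.236). Of all genes in that comparison, 22.5% were higher and 23.5% lower (median 0.02). In the same line UNC0642 changed 0 in each of the 3 lists with edgeR's quasi-likelihood test, with 5, 2 and 2 at an unadjusted p under 0.05. In Mel92.1 the sole call with either inhibitor against DMSO was 1 further target of HIF, which was lower with both. Between the lines with DMSO, 4 of the 22 further targets of HIF tested were higher in Mel92.1 and 13 lower (median -0.787). Of the 23 metabolic genes tested, 9 were higher and 10 lower (median -0.039). Of the 10 regulators of HIF tested, 4 were higher and 3 lower (median 0.18). Among all genes, 34.5% were higher and 34.8% lower (median -0.022).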

How the data were processed

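The authors deposited a table of RSEM expected counts, without normalization, for 26475 human gene symbols. The submitters' processing notes name Bowtie2 2.1.0, RSEM 1.2.15 and hg38, whereas the study's methods describe alignment to a mouse build and FPKM values, which are not what the table holds. The labels describe oligo-dT selection and strand-specific libraries, and the series text ribosomal RNA depletion. All library columns were used (0 left out).

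Expected counts were rounded and fitted with edgeR 4.0.16 in R 4.3.3 (filterByExpr, TMM factors, glmQLFit and glmQLFTest, Benjamini-Hochberg adjustment, threshold 0.05), with the 9 libraries of a line together, and with all 18 for differences between lines. Intervals are 95%. CPM values are scaled by TMM factors over the 18 libraries. Of the symbols, 23899 were matched to GENCODE 29 (GRCh38) by name and 719 by synonym, for position, length and GC content. Alternatives were the libraries as labelled or without the 4 exchanged ones, RLE factors, DESeq2 1.42.0, limma 3.58.1 voom with quality weights, no filter or a mean of 1 CPM, a replicate block, only the groups compared, an offset for GC content and length, and leaving out each library. Removing ribosomal RNA genes, and the offset without the exchanged libraries, were chosen after seeing the data. The tests were tested on simulated data with known changes.

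The members and lists were chosen with earlier results of these data known. Values per library are given for HIF1A, EPAS1 and ARNT, for up to 4 members in each direction with the largest change among those past the threshold in each comparison with DMSO, and for the 4 largest differences in each direction between the lines with DMSO. Values of LDHA, PGK1, VEGFA with A366 and CA12 in Mel92.1 were added after they were seen. That the replicates came from separate cultures is stated only as biological replicates, so p-values set group differences against the spread between these samples. Tables and plots were made with Python 3.11.15, pandas 2.3.3 and matplotlib 3.10.9.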

Additional observations from a re-analysis of the deposited data

Results flagged for a closer look

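A response to A366 that differed between Mel92.1 and MP41 flagged 8 members (interaction over 18 libraries, log2 fold change of Mel92.1 less that of MP41, edgeR's quasi-likelihood test, Benjamini-Hochberg adjusted). The difference was 0.93 for PDK1 (adjusted p = 0.0059), 0.81 for HIF1A (adjusted p = 0.0114), 0.69 for BNIP3 (adjusted p = 0.00746), 0.52 for EGLN1 (adjusted p = 0.0171), 0.46 for BNIP3L (adjusted p = 0.0115), 0.45 for LDHA (adjusted p = 0.00162), 0.25 for PGK1 (adjusted p = 0.0496) and -0.33 for PFKL (adjusted p = 0.0474) by edgeR. With the offsets for GC content and transcript length, PDK1, EGLN1, BNIP3L, PGK1 and PFKL no longer passed. With 3 libraries per group, no group was large enough to test single libraries for standing apart.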

How the results depend on the processing

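The count of members past the threshold stayed within 1.5 times that of the main fit except as follows. For A366 in Mel92.1 (0) it was 2 with DESeq2, 13 with voom quality weights and 1 with only the groups compared. For UNC0642 in MP41 (0) it was 3 without the 4 exchanged libraries, with or without the offset, 3 with only the groups compared, 2 with voom and 1 with the offset for transcript GC content and length. A366 against UNC0642 in MP41 (22) fell to 13 as labelled. The line difference for UNC0642 (0) was 1 with voom. The line difference for A366 (8) was 19 as labelled, 0 without the 4 exchanged libraries (1 with the offset as well), 14 with DESeq2 and 27 with voom. Leaving out 1 library gave 5 to 9 for the line difference for A366, 15 to 23 for A366 in MP41, 17 to 24 for A366 against UNC0642 in MP41, 27 to 30 between the lines with DMSO, and 0 in the other comparisons. As labelled, the biological coefficient of variation was 0.401 in Mel92.1 and 0.365 in MP41, against 0.175 and 0.109 with the placement used.

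Some directions turned. As labelled, A366 against DMSO in MP41 gave PFKM -0.21, ENO2 3.86, PFKFB3 0.043 and NDRG1 -0.44, A366 against UNC0642 gave PFKFB3 0.066 and NDRG1 -0.4, and the line difference for A366 gave SLC16A3 7.19, ENO2 -5.33, BNIP3L -0.36 and NDRG1 1.72. With the offset, and in brackets with the offset and without the exchanged libraries, A366 in MP41 gave PFKP -0.18, ALDOA -0.14 (-0.13) and TPI1 -0.36 (-0.34), the line difference for A366 gave TPI1 0.21, GAPDH 0.32 and PGK1 (-0.047), and the lines with DMSO gave PFKL -0.25 (-0.21), PFKP -0.15 (-0.1), ALDOC -0.24 (-0.21), TPI1 -0.13 (-0.089) and GAPDH -0.2 (-0.16). Apart from the alternatives' own construction, the cause was not tested.

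Same-numbered libraries did not deviate together (correlations -0.38 to 0.49), so the numbers were not taken as pairs. With the replicate number as a block, 15 members passed for A366 in MP41, 21 for A366 against UNC0642 in MP41, 6 for the line difference for A366, 24 between the lines with DMSO and 0 elsewhere. CA9, and CA12 and ADM in Mel92.1, had low counts, and the part of depth in this was not tested.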

Other observations

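Of the genes on the further lists, 3 were singled out here after their values were seen, as was EGLN2, given above. PDK2, a second pyruvate dehydrogenase kinase, read 22.5 to 28.4 CPM over the Mel92.1 libraries and 0 to 0.0832 CPM over those of MP41, while PDK1 was the lower of the lines in Mel92.1. SLC16A7 (MCT2, a high-affinity monocarboxylate transporter) read 28.5 to 46.5 CPM in Mel92.1 and 0 to 0.0805 CPM in MP41, the reverse of SLC16A3. DDIT4 (REDD1, an inhibitor of mTORC1 signalling and a target of HIF and of stress pathways) was the further target of HIF that was lower with both inhibitors in Mel92.1: it read 22.1 to 25.8 CPM with DMSO, 9.44 to 14.0 CPM with UNC0642 (log2 fold change -1.12, edgeR adjusted p = 0.0092) and 7.54 to 8.36 CPM with A366 (-1.57, edgeR adjusted p = 0.00279). In MP41 DDIT4 read 71.9 to 75.5 CPM with DMSO, 70.9 to 77.0 CPM with UNC0642 and 89.0 to 113 CPM with A366 (0.45, edgeR adjusted p = 0.00131).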
